A study of Homo sapiens with 7 samples.

Results

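The genes described here are 10 readers of N6-methyladenosine (m6A), the methyl mark that the METTL3-METTL14 complex writes on mRNA. They were taken by name, with earlier results of these data known. They are the 5 YTH-domain genes YTHDF1, YTHDF2, YTHDF3, YTHDC1 and YTHDC2, the 3 insulin-like growth factor 2 mRNA-binding protein genes IGF2BP1, IGF2BP2 and IGF2BP3, and the nuclear ribonucleoprotein genes HNRNPA2B1 and HNRNPC. All 10 were found by Ensembl ID among the 66025 genes of the count table, and all 10 passed the filter on low counts that left 22926 genes to test.

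RNA-seq was done on β-like cells made from H1, an established human embryonic stem cell line, and sorted by flow cytometry at the last stage of the differentiation with the zinc dye DA-ZP1. In the iKD2 line, a lentiviral vector carries 1 doxycycline (Dox)-inducible shRNA against METTL14, and the line was selected with puromycin. The 3 groups were iKD2 with Dox (iKD2 Dox+, libraries a, b and c), the same line without Dox (iKD2 Dox-, b and c) and iSCR, a line with a non-targeting scramble vector, with Dox (iSCR Dox+, a and b). The shRNA groups rest on this 1 shRNA, so that the effect of the line, of the vector and of the shRNA cannot be told apart where iKD2 and iSCR are compared. Between iKD2 Dox- and iSCR Dox+ the Dox treatment differs as well, which cannot be told apart from the line there either. The study describes the libraries as biologically independent, while the labels name no separate cultures, so that p-values measure the spread between these libraries and no more. The libraries held between 14875429 and 20639156 estimated counts. Values for single libraries are given in the order of these letters. METTL14 itself was at 18.7, 16.3 and 49.1 CPM in iKD2 cells with Dox, against 39.4 and 22.6 CPM without Dox and 36.1 and 32.2 CPM in the scramble line. More METTL14 mRNA was thus counted in the library labelled iKD2 Dox+ c than in any control, and every value below for iKD2 Dox+ includes it. CPM are counts per 1000000 after TMM scaling, which sets libraries to a common effective size. INS, the insulin gene, was at 11365 to 22298 CPM. GCG and SST, listed as α- and δ-cell markers, were at 5039 to 12846 CPM and 1988 to 3904 CPM. The 6 acinar markers listed summed to 6.82 to 16.2 CPM, with CELA3A, PNLIP and AMY2A at 0 in all 7 libraries.

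Reader proteins bind methylated transcripts and set their fate. The cytoplasmic YTHDF proteins are best known for leading m6A-marked mRNAs to decay, with YTHDF2 recruiting the CCR4-NOT deadenylase, while YTHDC1 acts in the nucleus on splicing and export and YTHDC2, an RNA helicase, is best known from germ cells. IGF2BP proteins instead stabilise their client mRNAs. They are made mainly in fetal tissue and are classic targets of the let-7 microRNA family, which LIN28 proteins hold back. HNRNPA2B1 and HNRNPC are abundant nuclear RNA-binding proteins whose access to RNA can depend on a nearby m6A.

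The 3 IGF2BP genes were the members whose 3′ UTRs carry matches to the let-7 seed, which sets them apart in sequence from the YTH and HNRNP genes. The mature sequences of 3 let-7 family members, given by RefSeq, are shown to let the seed (bases 2 to 8, in capitals) be read against the sites.
hsa-let-7a-5p: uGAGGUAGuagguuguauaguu
hsa-let-7g-5p: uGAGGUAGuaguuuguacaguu
hsa-miR-98-5p: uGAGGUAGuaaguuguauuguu
The DNA letters searched for were CTACCTC, the reverse complement of that seed, on the transcript strand only, in the 3′ UTR of the longest coding transcript of GENCODE release 29 (GRCh38). Each site is printed 5′ to 3′ with the match in capitals.
IGF2BP1 site at chr17:49051061-49051086 (+): tgtgtgcgaagtaaaCTACCTCaagg
IGF2BP1 site at chr17:49053698-49053723 (+): cagcagtgctagtaaCTACCTCacag
IGF2BP1 site at chr17:49054352-49054377 (+): gtataaatggattaaCTACCTCaatc
IGF2BP1 site at chr17:49054997-49055022 (+): tcacttttgttttatCTACCTCttag
IGF2BP2 site at chr3:185644217-185644242 (-): aacacacagaagaagCTACCTCaggt
IGF2BP3 site at chr7:23311792-23311817 (-): tgcatttttactcaaCTACCTCaggt
IGF2BP1 thus held 4 matches in a 3′ UTR of 6206 bases, and IGF2BP2 and IGF2BP3 held 1 each in 1792 and 2153 bases. The other 7 members held 0, in 3′ UTRs of 667 to 3712 bases. Of 19059 coding genes with a 3′ UTR, 1812 (9.5%) held at least 1 match and 210 (1.1%) at least 2, and 12 genes held as many as IGF2BP1 or more. The median 3′ UTR of the coding genes was 1044 bases, and these shares were not matched for length. A match is a description of the sequence. MicroRNA levels were not measured in these libraries.

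**Figure D1:**
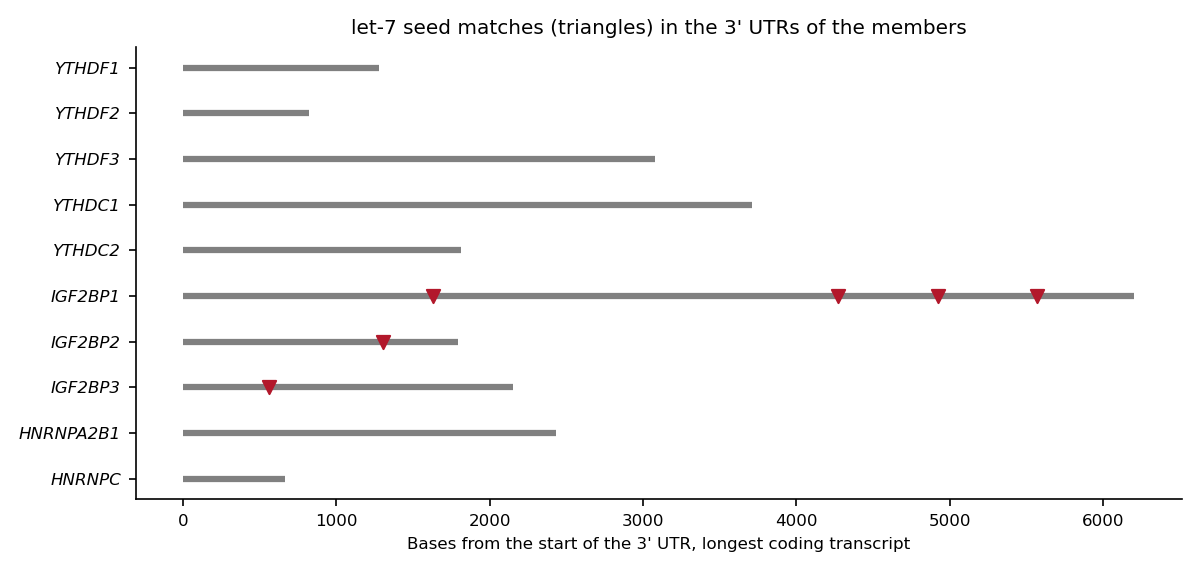
Each grey line is the 3′ UTR of the longest coding transcript of a member, drawn to scale in bases from its start, and each triangle is a let-7 seed match. The 4 matches of IGF2BP1 lie at bases 1632, 4269, 4923 and 5568, that of IGF2BP2 at 1304 and that of IGF2BP3 at 560.

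The first question was how abundant the readers are relative to one another in these cells. Levels of different genes were set side by side only after division by the length of the longest coding transcript and scaling each library to a sum of 1000000 (the length-scaled level). On this scale HNRNPA2B1 was the highest member in all 7 libraries, at 307 ± 42.0 (SD, n = 7), above 99.0% of the 14522 coding genes with a mean of at least 1. HNRNPC followed at 112 ± 13.0 and IGF2BP2 at 101 ± 19.2, with the order of these 2 differing between libraries. YTHDF2 was at 56.5 ± 19, IGF2BP1 at 48.5 ± 7.15, YTHDF1 at 41.2 ± 12.5, YTHDC1 at 36.0 ± 3.15, YTHDF3 at 34.3 ± 7.51 and IGF2BP3 at 29.9 ± 7.83. In iSCR Dox+, YTHDF2 was at 31.1 and 31.4, places 6 and 7 of the 10 and below IGF2BP1 at 43.1 and 44.2. In iKD2 Dox+ a it was also at place 6, with 58.5 against 59.1 for IGF2BP1. In the remaining iKD2 libraries it was at place 4, so that its place overlapped between the lines. YTHDC2 was the lowest in all 7 libraries, at 9.70 ± 4.95, and the only member under the median of those coding genes, which was 12.6. HNRNPA2B1 alone amounted to between 0.555 and 0.781 times the sum of the other 9.

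Of the 45 pairs of members, 33 differed in level by an exact two-sided permutation test over all sign flips of the 7 log2 ratios, adjusted over the 45 pairs. Each of these 33 had the same member higher in 7 of 7 libraries and an adjusted p of 0.0213, from the smallest p that 7 libraries allow, 0.0156. Neighbours in the order differed at 3 steps. HNRNPA2B1 lay 2.73-fold above HNRNPC, IGF2BP2 lay 1.86-fold above YTHDF2 (3.46-fold and 3.09-fold in iSCR Dox+ and 1.07-fold to 2.07-fold in iKD2), and IGF2BP3 lay 3.34-fold above YTHDC2. HNRNPC and IGF2BP2 did not differ beyond their spread, with HNRNPC higher in 5 of 7 libraries (1.12-fold, adjusted p = 0.114 by the exact permutation test). Nor did any neighbours from YTHDF2 down to IGF2BP3, whose adjusted p-values in the same exact test ran from 0.148 to 0.469.

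The choice of transcript length bears on this order, since the files do not say which isoforms the cells used. With the median length of the coding transcripts, HNRNPC, which has 26 annotated coding transcripts, stood at 239 and HNRNPA2B1 at 198, so that this pair turned round in 7 of 7 libraries. YTHDC1 and IGF2BP1 turned round as well. The other called pairs kept their direction where they were called, and 29 of the 45 pairs were called the same way under all 3 lengths tried. YTHDC2 was lowest under each of them. Within the 4 control libraries alone, no pair could pass, because 4 libraries allow no p under 0.125.

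**Figure D2:**
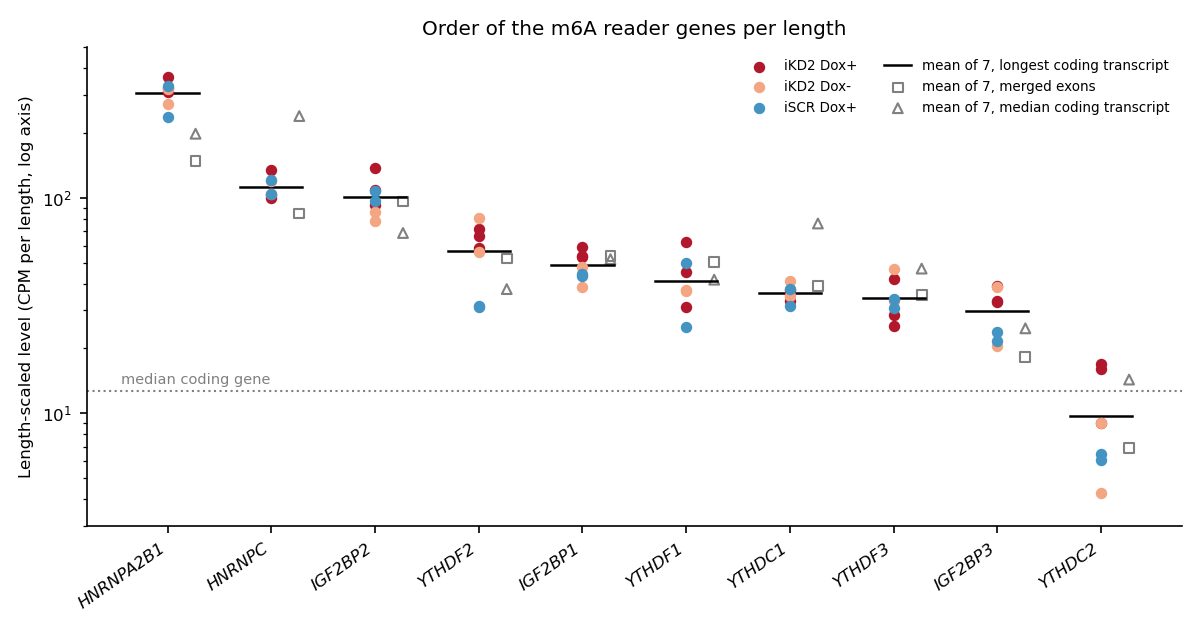
The 10 members are ordered by mean length-scaled level (log axis), with 1 point per library coloured by group, a bar for the mean of 7 libraries and open symbols for that mean under both other gene lengths. HNRNPA2B1, at a mean of 307, leads and YTHDC2, at 9.70, closes the order, while HNRNPC shifts most with the length used.

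The next question was whether the readers differed between the 3 groups. None of the 10 had an adjusted p under 0.05 in edgeR's quasi-likelihood test in any comparison. That threshold was passed by 0.0393% of all genes tested between iKD2 Dox+ and iKD2 Dox-, by 0.0262% between iKD2 Dox+ and iSCR Dox+, and by 0.0131% between iKD2 Dox- and iSCR Dox+, so that a count of 0 among 10 members is near the background. By the criterion of an unadjusted p under 0.05 and a change over 1.5-fold, 0 members passed in the first comparison (3.55% of all genes), 1 in the second (6.52%) and 1 in the third (4.38%), YTHDF2 each time. At an unadjusted p under 0.05 alone the counts were the same. No share of all genes is given for that rule, so these counts are not read as a result. Under the DESeq2 Wald test, YTHDF2 was called in both comparisons with iSCR Dox+ and no other member in any. That test called 750 of 22926 genes for iKD2 Dox+ against iSCR Dox+ and 411 for iKD2 Dox- against iSCR Dox+. Libraries did not overlap between groups for 3 members in each comparison, against 20.3%, 20.5% and 33.1% of all genes tested. The median log2 fold change of the 10 was 0.08, 0.15 and 0.05 in the 3 comparisons, and that of all genes tested was 0.01, 0.08 and 0.04.

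**Figure D3:**
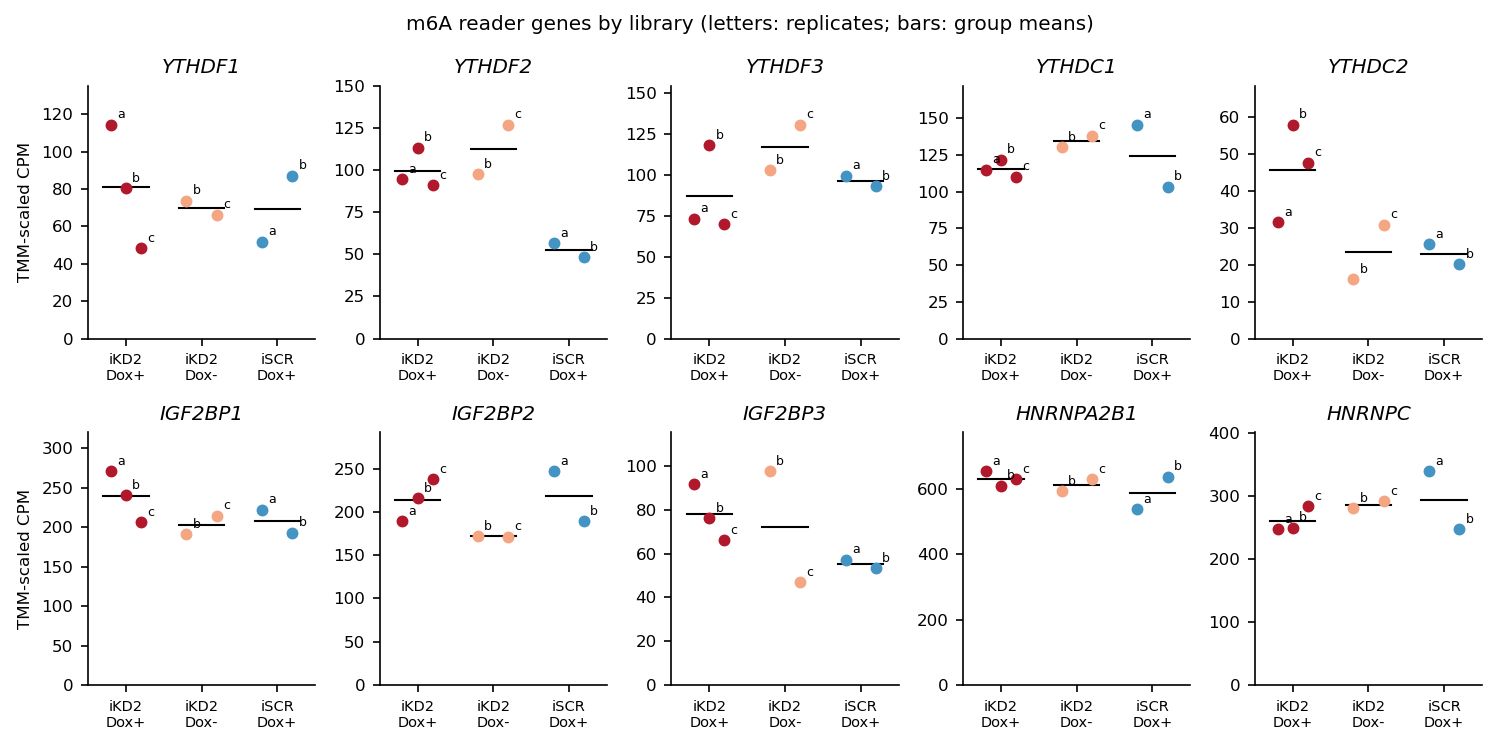
TMM-scaled CPM of each member in each library, with points coloured by group and lettered by replicate, and a bar at each group mean. YTHDF2 sits at 48.6 and 56.7 CPM in iSCR Dox+ and at 91.2 CPM or above in all 5 iKD2 libraries, and YTHDC2 is above every control library in all 3 iKD2 Dox+ libraries.

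YTHDF2 (ENSG00000198492, chromosome 1, 28736621 to 28769775), the reader that brings deadenylases to m6A-marked mRNA, had the lowest unadjusted p of the 10 in both comparisons between the lines. Its level was 95, 114 and 91.2 CPM in the iKD2 line with Dox, 98.0 and 127 CPM in that line without Dox, and 56.7 and 48.6 CPM in the scramble line. Both iSCR libraries lay below all 5 iKD2 libraries, with or without Dox. The log2 fold change was 0.92 for iKD2 Dox+ against iSCR Dox+ (SE 0.33, 95% CI 0.23 to 1.62, unadjusted p = 0.0114, edgeR adjusted p = 0.655) and 1.10 for iKD2 Dox- against iSCR Dox+ (SE 0.36, 95% CI 0.35 to 1.84, unadjusted p = 0.00601, edgeR adjusted p = 0.826). These comparisons share the iSCR libraries. Between iKD2 Dox+ and iKD2 Dox- it was -0.17 (95% CI -0.84 to 0.50). DESeq2 gave adjusted p-values of 0.0438 and 0.0353 against iSCR Dox+, where it called 750 and 411 genes in all. The difference thus passes or misses the threshold with the tool, and its size was 0.82 to 1.04 and 0.90 to 1.27 over 15 alternatives each.

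Setting iSCR Dox+ against the mean of both iKD2 groups, a contrast chosen after these levels had been seen, gave a log2 difference of -1.01 for YTHDF2 (SE 0.32, 95% CI -1.67 to -0.35, unadjusted p = 0.00424, edgeR adjusted p = 0.582). Here 0.0218% of all genes had an adjusted p under 0.05, and 11.7% had both iSCR libraries on 1 side of all 5 iKD2 libraries. YTHDF2 was the only member on 1 side, which is near what that share gives for 10 genes. A ratio within a library needs no scaling between libraries: length-scaled YTHDF2 over YTHDF3 was 1.01 and 0.927 in iSCR Dox+ and 1.69 to 2.32 in the 5 iKD2 libraries. YTHDF2 over YTHDC1 was 0.829 and 1.0 in iSCR Dox+ and 1.60 to 1.99 in iKD2. Against YTHDF1 the lines overlapped, with ratios of 1.24 and 0.629 in iSCR Dox+ and 0.937 to 2.17 in iKD2. These ratios reuse the YTHDF2 values above and are not separate results. No background over all genes was computed for such ratios. INS differed between the lines as well, at 22298 and 21507 CPM in iSCR Dox+ and 11365 to 17393 CPM in iKD2. It alone of the listed genes passed the edgeR threshold (iKD2 Dox+ against iSCR Dox+, log2 fold change -0.85, edgeR adjusted p = 0.000471). Within iKD2, INS was at 11365 to 13581 CPM with Dox and at 17393 and 14630 CPM without (log2 fold change -0.39, unadjusted p = 0.00114, edgeR adjusted p = 0.451). The sum of 14 β-cell markers was 25008 and 24160 CPM in iSCR Dox+ and 13469 to 20603 CPM in iKD2. Without INS the sum of the other 13 was 2710 and 2652 CPM in iSCR Dox+ and 1844 to 3210 CPM in iKD2, so that it overlapped. The part of INS-expressing cells in the YTHDF2 difference was not tested. In bulk samples, fewer cells of a type and less RNA per cell cannot be told apart.

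YTHDF1 (ENSG00000149658, chromosome 20, 63195429 to 63216234), a paralogue of YTHDF2 known for binding the same marked mRNAs, spread widely within groups. The iKD2 Dox+ libraries held 114, 80.5 and 48.5 CPM, the iKD2 Dox- libraries 73.8 and 66.2 CPM, and the iSCR Dox+ libraries 51.8 and 87.1 CPM. The highest and the lowest library were both iKD2 Dox+, and the groups overlapped. Its log2 fold change between iKD2 Dox+ and iKD2 Dox- was 0.21, with a standard error of 0.40.

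YTHDF3 (ENSG00000185728, chromosome 8, 63168553 to 63212786), the third of these paralogues, measured 73.2, 118 and 69.8 CPM under the label iKD2 Dox+, 103 and 131 CPM without Dox and 99.5 and 93.0 CPM with the scramble vector. Both iKD2 Dox- libraries lay above both iSCR libraries, by a margin from 99.5 to 103 CPM. The log2 fold change was -0.42 for iKD2 Dox+ against iKD2 Dox- (95% CI -1.11 to 0.26) and 0.28 for iKD2 Dox- against iSCR Dox+ (95% CI -0.47 to 1.03). Leaving out iKD2 Dox+ b made the first -0.71 and leaving out iKD2 Dox- c made it -0.25, and the second 0.44 when iKD2 Dox- b was left out and 0.10 when iKD2 Dox- c was.

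Within the YTHDF family, YTHDF2 made up 35.8% and 27.3% of the length-scaled sum in iSCR Dox+ a and b, and 40% to 52.6% in the iKD2 libraries. YTHDF3 made up 35.3% and 29.4% in iSCR Dox+ and 17.4% to 28.4% in iKD2, so that these 2 shares did not overlap between the lines. They are not separate results, because YTHDF2 is part of the sum by which YTHDF3 is divided. In CPM, YTHDF3 itself overlapped, at 99.5 and 93.0 in iSCR Dox+ and 69.8 to 131 in iKD2. No background over all genes was computed for such shares. The share of YTHDF1, from 22.6% to 43.3%, did overlap.

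**Figure D4:**
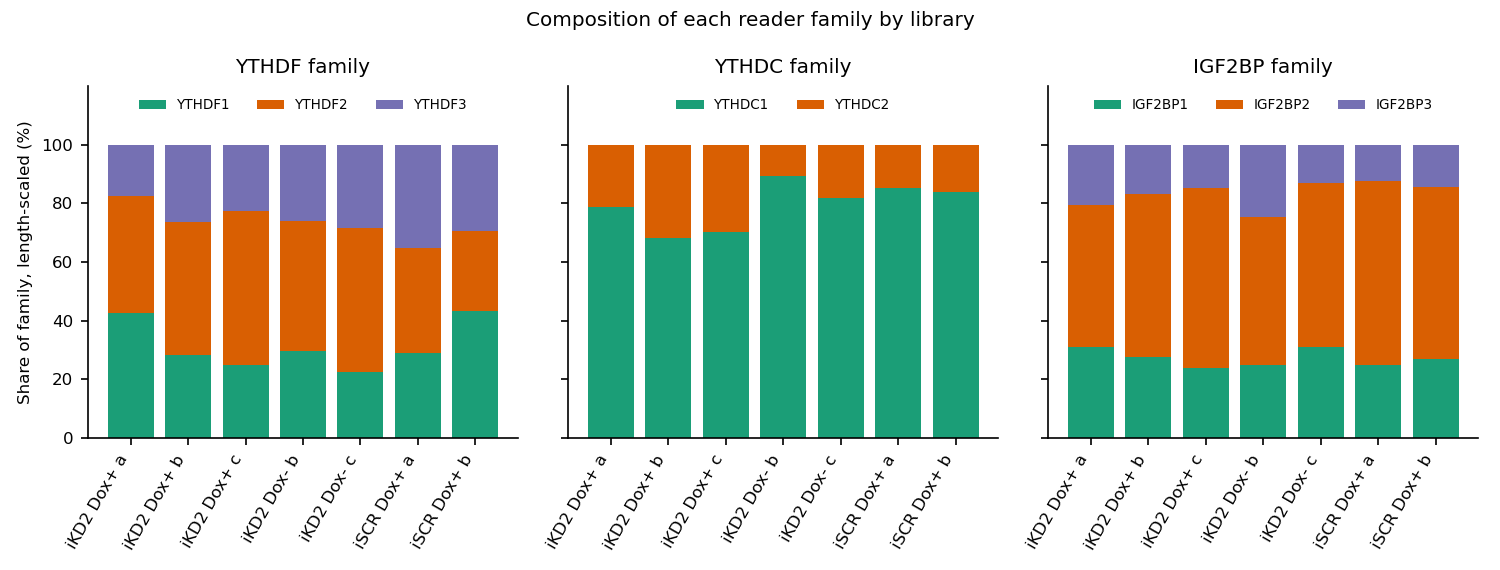
Each bar is 1 library, split by the share in percent of each gene in the length-scaled sum of its family. The YTHDF2 share is 27.3% and 35.8% in iSCR Dox+ against at least 40% elsewhere, the YTHDC2 share is at least 21.3% in iKD2 Dox+ against at most 18.1% elsewhere, and IGF2BP2 is the largest IGF2BP in every library, at 48.5% or more.

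YTHDC2 (ENSG00000047188, chromosome 5, 113513683 to 113595285), the helicase-type reader, reached 31.6, 58.0 and 47.7 CPM in the 3 iKD2 Dox+ libraries. The control libraries held less, with 16.1 and 30.9 CPM for iKD2 Dox- and 25.5 and 20.2 CPM for iSCR Dox+. All 3 iKD2 Dox+ libraries thus lay above all 4 controls, the nearest being iKD2 Dox+ a and iKD2 Dox- c. The log2 fold change was 0.96 against iKD2 Dox- (SE 0.59, 95% CI -0.27 to 2.19, unadjusted p = 0.119, edgeR adjusted p = 1) and 1.0 against iSCR Dox+ (SE 0.59, 95% CI -0.23 to 2.23, unadjusted p = 0.106, edgeR adjusted p = 0.699), with both intervals holding 0. The value against iKD2 Dox- was 0.56 when iKD2 Dox- b was left out and 1.5 when iKD2 Dox- c was.

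Against the mean of both control groups, again a contrast chosen after the levels had been seen, the log2 difference of YTHDC2 was 0.98 (95% CI -0.01 to 1.97, unadjusted p = 0.0524, edgeR adjusted p = 0.758). Of all genes tested, 6.30% had the 3 iKD2 Dox+ libraries on 1 side of the 4 controls, and 0.0480% had an adjusted p under 0.05 in this contrast. YTHDC2 was the only member on 1 side, which is near what that share gives for 10 genes. Summed markers of other cells were also higher in iKD2 Dox+ than in every control: 7 ductal markers at 930 to 1011 CPM against 467 to 710, 8 mesenchymal markers at 716 to 1116 CPM against 297 to 707, and 10 proliferation markers at 527 to 697 CPM against 258 to 462. The 14 β-cell markers summed to less in iKD2 Dox+ than in every control, at 13469 to 15826 CPM against 17199 to 25008, and so did the 13 without INS, at 1844 to 2512 CPM against 2569 to 3210. No marker of these 4 lists was at 0 in all libraries, and their part in the YTHDC2 values was not tested. MEIOC and RBM46, the germ cell partners of YTHDC2, were at 0 to 1.19 CPM and 0 to 8.96 CPM.

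YTHDC1 (ENSG00000083896, chromosome 4, 68310387 to 68350089), the nuclear reader, varied little. Its levels were 115, 122 and 110 CPM for iKD2 Dox+, 131 and 138 CPM for iKD2 Dox- and 146 and 103 CPM for iSCR Dox+. The 3 iKD2 Dox+ libraries lay below both iKD2 Dox- libraries, and within the range of the iSCR pair. The log2 fold change was -0.22 against iKD2 Dox- (95% CI -0.81 to 0.38) and -0.11 against iSCR Dox+ (95% CI -0.71 to 0.49).

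Among the IGF2BP genes, IGF2BP1 (ENSG00000159217, chromosome 17, 48997412 to 49055650) measured 271, 241 and 207 CPM under the label iKD2 Dox+, 191 and 215 CPM without Dox and 222 and 193 CPM with the scramble vector. The groups overlapped, and the log2 fold change of iKD2 Dox+ was 0.24 against iKD2 Dox- (95% CI -0.25 to 0.73) and 0.21 against iSCR Dox+ (95% CI -0.29 to 0.70).

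IGF2BP2 (ENSG00000073792, chromosome 3, 185643739 to 185825056), the IGF2BP that adult islets also express, measured 189, 216 and 238 CPM for iKD2 Dox+, 172 and 171 CPM for iKD2 Dox- and 247 and 189 CPM for iSCR Dox+. Both iKD2 Dox- libraries were below the other 5, a split seen in the values, for which no background over all genes was computed. The log2 fold change was 0.32 for iKD2 Dox+ against iKD2 Dox- (95% CI -0.19 to 0.83), -0.34 for iKD2 Dox- against iSCR Dox+ (95% CI -0.90 to 0.21) and -0.03 for iKD2 Dox+ against iSCR Dox+. The first 2 share the iKD2 Dox- libraries. The value between iKD2 Dox- and iSCR Dox+ was -0.13 without iSCR Dox+ a and -0.52 without iSCR Dox+ b.

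IGF2BP3 (ENSG00000136231, chromosome 7, 23310209 to 23470467) measured 91.9, 76.1 and 66.1 CPM for iKD2 Dox+, 97.8 and 46.9 CPM for iKD2 Dox- and 57.3 and 53.6 CPM for iSCR Dox+. The iKD2 Dox- libraries were the highest and the lowest of the 7. All iKD2 Dox+ libraries lay above both iSCR libraries, with a log2 fold change of 0.49 (95% CI -0.33 to 1.32). By length-scaled share, IGF2BP2 was the largest of the 3 in every library, at 48.5% to 62.4% of their sum, with IGF2BP1 at 23.8% to 31.1% and IGF2BP3 at 12.6% to 24.8%.

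Genes of fetal growth were measured beside this family. IGF2, the growth factor mRNA from which the family is named, was at 25024 to 31956 CPM, a value not scaled for length. H19, the imprinted RNA next to IGF2, was at 0 in 3 libraries and at most at 1.85 CPM. LIN28B, the inhibitor of let-7 processing, measured 31.0, 57.7 and 35.1 CPM for iKD2 Dox+, 24.4 and 56.4 CPM for iKD2 Dox- and 5.75 and 14.9 CPM for iSCR Dox+. As for YTHDF2, both iSCR libraries lay below all iKD2 libraries, and the difference missed the edgeR threshold (unadjusted p = 0.00712 and 0.0110, edgeR adjusted p = 0.591 and 0.826). Both iSCR libraries were on 1 side of all 5 iKD2 libraries for 11.7% of all genes tested. Of the 14 genes of the LIN28, let-7 and fetal growth list and the 9 IGF2BP client mRNAs, 0 passed an adjusted p of 0.05 in any of the 3 comparisons. Their median log2 fold changes were -0.01 and 0.18 for iKD2 Dox+ against iKD2 Dox-, 0.27 and 0.01 for iKD2 Dox+ against iSCR Dox+, and 0.27 and -0.17 for iKD2 Dox- against iSCR Dox+.

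HNRNPA2B1 (ENSG00000122566, chromosome 7, 26173057 to 26201529), a nuclear reader also linked to microRNA processing, was the steadiest of the 10. Its levels were 655, 610 and 630 CPM under the label iKD2 Dox+, 594 and 629 CPM without Dox and 538 and 638 CPM with the scramble vector. The groups overlapped, and the highest library held 1.22 times the lowest. The 95% CI of the fold between iKD2 Dox+ and iKD2 Dox- ran from 0.799 to 1.33, and against iSCR Dox+ from 0.830 to 1.39, so that a change of 1.5-fold lies outside both. Its coefficient of variation (CV) within groups was 6.63%, where the median of the 4276 genes tested with a mean of at least 50 CPM was 24.1%. That background starts far below the mean of HNRNPA2B1, 613 CPM, and was not matched for level.

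HNRNPC (ENSG00000092199, chromosome 14, 21209136 to 21269494), which binds uridine tracts laid open by m6A, measured 248, 250 and 285 CPM for iKD2 Dox+, 281 and 292 CPM for iKD2 Dox- and 340 and 247 CPM for iSCR Dox+. The iSCR pair held the highest and the lowest library. The log2 fold change was -0.14 against iKD2 Dox- (95% CI -0.60 to 0.33) and -0.17 against iSCR Dox+ (95% CI -0.64 to 0.29).

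**Figure D5:**
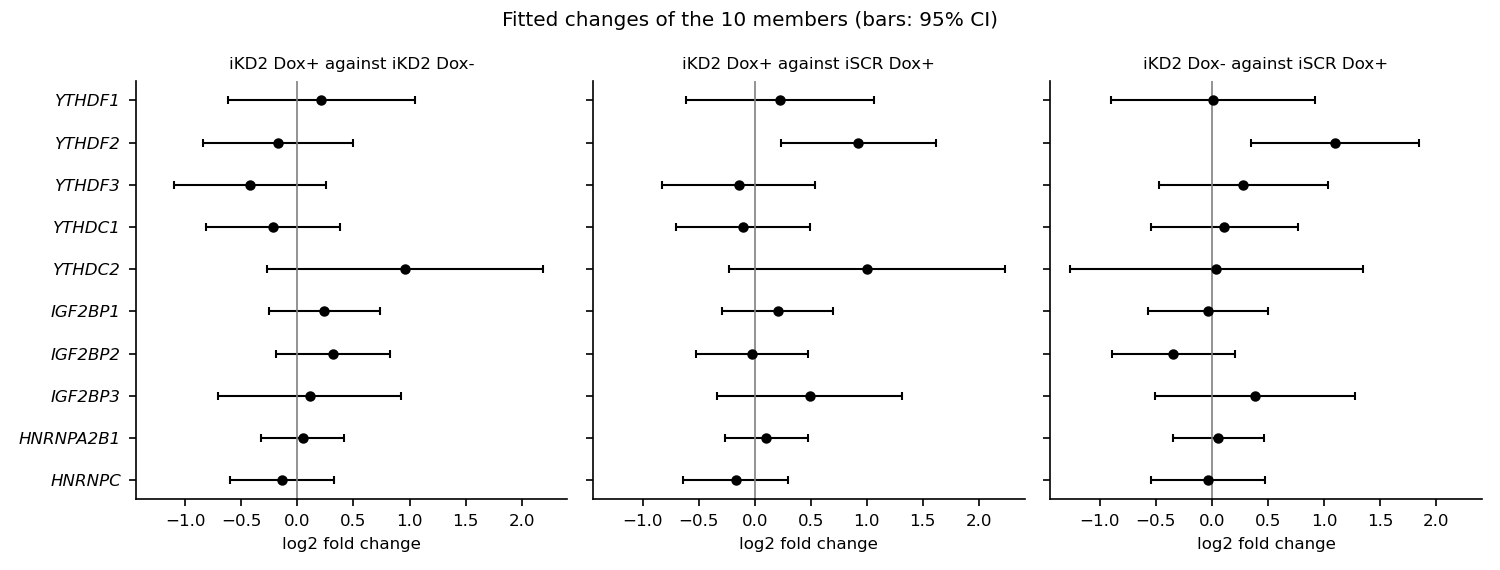
Points are the log2 fold changes of the 10 members fitted by edgeR and bars their 95% confidence intervals, in 1 panel per comparison of groups. The interval lies wholly above 0 for YTHDF2 in both comparisons with iSCR Dox+ (0.23 to 1.62 and 0.35 to 1.84) and includes 0 for every other point.

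The width of these intervals sets what could be seen. For the other 9 members the CV within groups ran from 12.0% for IGF2BP1 to 35.6% for YTHDF1. The lowest count behind any member value was an estimated count of 302, for YTHDC2, so that counting error was small beside the spread between libraries. The interval of YTHDC2 between iKD2 Dox- and iSCR Dox+, from -1.27 to 1.35, leaves room for a change of more than 2-fold either way.

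Lists of genes that work with the readers were counted in the same way. Of 13 tested genes proposed as further m6A readers, 22 partners of YTH proteins such as the CCR4-NOT subunits, 23 other HNRNP genes and 11 writers and erasers, 0 passed an adjusted p of 0.05 in any comparison. Their median log2 fold changes between iKD2 Dox+ and iKD2 Dox- were -0.08, 0.05, 0.02 and 0.12. Splicing factor SRSF7, a partner of YTHDC1 named here after its values were seen, was at 53.4 and 54.0 CPM in iSCR Dox+ and at 82.3 to 108 CPM in all 5 iKD2 libraries, with edgeR adjusted p-values of 0.691 and 0.826. Of all genes tested, 11.7% had both iSCR libraries on 1 side of all 5 iKD2 libraries. SRSF10, from the same list and also named after its values were seen, lay the other way between iKD2 Dox- (74.4 and 63.3 CPM) and iSCR Dox+ (170 and 104 CPM), with a log2 fold change of -0.99 (edgeR adjusted p = 0.826), and was at 97.0 to 130 CPM in iKD2 Dox+. Libraries of iKD2 Dox- and iSCR Dox+ did not overlap for 33.1% of all genes tested.

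For each member, the gene whose log2(CPM + 1) followed it most closely over the 7 libraries was sought among 11749 genes with a mean of at least 10 CPM. These were CEP128 for YTHDF1, C18orf25 for YTHDF2, SARM1 for YTHDF3, ENSG00000275272 for YTHDC1, CITED4 for YTHDC2, RNF126 for IGF2BP1, KDM2A for IGF2BP2, CEP43 for IGF2BP3, ECHDC2 for HNRNPA2B1 and MRPS7 for HNRNPC. Pearson's r ran from 0.955 for YTHDC2 to 0.992 for HNRNPA2B1. Each is the highest of 11749 values over 7 points from shared libraries and is given as a description.

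Reads shared with other genes can blur these values. The processed pseudogenes YTHDF1P1, YTHDF2P1 and YTHDF3P1 and the HNRNPC copies HNRNPCL1, HNRNPCL2, HNRNPCL3 and HNRNPCL4 were at 0 in all libraries, and the highest HNRNPC pseudogene reached 2.08 CPM. IGF2BP3 shares 1521 exon bases with MALSU1 on the opposite strand (0.702 to 9.99 CPM), and HNRNPA2B1 shares 368 with CBX3 (34.3 to 62.7 CPM). The strand setting of the counting is not given in the sources used here, so that reads from these overlaps may not be told apart. Kallisto divides reads that match several transcripts, and estimated counts that were not exactly whole occurred for YTHDC1 in 7 libraries, HNRNPC in 5, IGF2BP3 in 3 and IGF2BP1 and IGF2BP2 in 2 each.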

How the data were processed

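RNA-seq of sorted β-like cells was analysed in 7 libraries. The estimated counts per gene deposited by the authors came from reads trimmed with fastp and pseudo-aligned with kallisto, per the submitters' processing notes, and were summed per gene with tximport. They are not scaled for depth or length. The versions of these tools, the strand setting and the genome build are not given in the sources used here. The kit was a stranded total RNA kit.

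Counts were rounded, filtered with filterByExpr by group and scaled by TMM. All 7 libraries entered 1 edgeR 4.0.16 quasi-likelihood fit (robust, R 4.3.3) of 3 groups without covariate, with Benjamini-Hochberg adjustment over 22926 genes and calls at 0.05. Alternatives were DESeq2 1.42.0, limma 3.58.1 (voom), other scalings and filters, fewer groups, a replicate block and each library left out. Scripts were tested on simulated data. Coordinates and lengths are those of GENCODE 29 (GRCh38), matched by gene ID for 57402 of 66025 IDs. Same-group libraries were checked for duplicates and none was found. Genes named are the members, METTL14, genes of the lists past the threshold (INS), overlapping or near-identical genes and the gene most like each member. LIN28B, IGF2, H19, MEIOC, RBM46, SRSF7, SRSF10, GCG, SST, CELA3A, PNLIP and AMY2A were chosen after their values had been seen. Members and lists were chosen with earlier results of these data known. The gene PRRC2B, 1 of the other readers listed, was not analysed here.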

Additional observations from a re-analysis of the deposited data

How the results depend on the processing

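The count of members past an adjusted p of 0.05 was 0 in each comparison under all alternatives except the DESeq2 Wald test, which called 1 member (YTHDF2) against iSCR Dox+ in both iKD2 groups. With each library left out in turn it ranged from 0 to 0. Correlations of same-letter deviations ran from -0.01 to 0.01. These deviations were taken from group means, and in groups of 2 libraries they mirror each other. Whether the letters pair the libraries could thus not be settled. The replicate block left 0 members called while the count of all genes was 18, 15 and 8 in place of 9, 6 and 3. Over all alternatives, genes called numbered 2 to 231, 2 to 750 and 0 to 445 in the 3 comparisons, against 9, 6 and 3. The block turned the log2 fold change of YTHDC2 to -0.32 and of IGF2BP1 to 0.10 between iKD2 Dox- and iSCR Dox+. In that comparison YTHDF1 turned to -0.028 with DESeq2 size factors and to -0.028 with the DESeq2 test, and YTHDC2 to -0.051 with voom. With each library left out in turn, values spanned 0 in iKD2 Dox+ against iKD2 Dox- for YTHDF1 (-0.12 to 0.47), YTHDF2 (-0.36 to 0.024), IGF2BP3 (-0.33 to 0.73) and HNRNPA2B1 (-0.0022 to 0.084). They did so in iKD2 Dox+ against iSCR Dox+ for YTHDF1 (-0.11 to 0.65), YTHDC1 (-0.33 to 0.16), IGF2BP2 (-0.21 to 0.18), HNRNPA2B1 (-0.013 to 0.23) and HNRNPC (-0.38 to 0.078). In iKD2 Dox- against iSCR Dox+ they did so for YTHDF1 (-0.31 to 0.44), YTHDC1 (-0.11 to 0.38), YTHDC2 (-0.50 to 0.43), IGF2BP1 (-0.13 to 0.072), IGF2BP3 (-0.24 to 0.82), HNRNPA2B1 (-0.058 to 0.19) and HNRNPC (-0.24 to 0.21). In all, 27 of 450 values turned sign, none of them called. The cause was not tested. Unadjusted p-values of YTHDF2 reached 0.0536 without iSCR Dox+ b and 0.0784 without iKD2 Dox- c. Of the 45 pairs of members, 33 to 34 differed with each library left out, 36 with merged exons and 39 with the median length, but 0 with the 4 control libraries alone, where no p can pass.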
